A study of Mus musculus with 6 samples.

Results

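The genes described here encode the proteins of the mitochondrial ribosome. They were chosen by name, as the protein-coding genes whose GENCODE M21 symbol is Mrpl or Mrps followed by a number, and 78 of the 35458 genes with a matched transcript met that rule, 49 Mrpl and 29 Mrps genes. Their RNA was measured in pooled fetal hearts of wild-type FVB/NJ mice, an inbred strain. In the nano-TiO2 group (3 pools) the dams had inhaled an aerosol of titanium dioxide nanoparticles, a white pigment material, and in the sham group (3 pools) they had breathed filtered room air. Exposure began on gestational day 5 and took place on 6 days, not consecutive, out of 8, for 360 minutes on each, at a target of 12 mg/m3. Hearts were taken on gestational day 15. The study used 14 dams aged 10 weeks, and each pool held fetuses of both sexes. The RNA was fragmented total RNA that had met no antibody, the input of a study of the RNA mark m6A, so the libraries measure RNA abundance. The labels do not say how many litters a pool held, and the p-values cover only the variation from pool to pool. In bulk tissue, fewer cells of a type and less RNA per cell cannot be told apart.

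Mitochondria translate the few proteins encoded by their own DNA on a ribosome of their own, which has a small subunit that binds the messenger RNA and a large subunit that forms peptide bonds. Its RNA comes from mitochondrial DNA, whereas all of its proteins are encoded in the nucleus, made in the cytosol and imported. Some of these proteins descend from those of the bacterial ribosome and others were added later in evolution. All products of this ribosome are subunits of the respiratory chain and the ATP synthase, on which the heart muscle cell depends for its energy.

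Salmon assigned between 12881945 and 22720009 reads to transcripts per library, and between 100634 and 226658 of them fell on the 78 genes, 0.773% to 1.01% of the reads on matched genes. All 10 cardiomyocyte markers were detected in all 6 libraries. Their summed TPM was 42270, 39160 and 45220 in the nano-TiO2 libraries, against 34170, 31430 and 35240 in the sham libraries, with no overlap; in TPM, a level per transcript length, 47.2% of all genes lay wholly higher in nano-TiO2. Relative to the typical gene (edgeR, TMM scaling), 4 of the 10 were called lower and 1 higher, with a median log2 fold change of -0.23, whereas on log2(TPM + 1) 0 were lower and 5 higher, with a median of 0.47. The 11 erythroid markers summed to between 126400 and 203800 TPM in the nano-TiO2 libraries, against 187400 to 369900 TPM in the sham libraries. Haemoglobin genes took 10.2%, 5.67% and 9.42% of reads in the nano-TiO2 libraries 1 to 3, against 12.4%, 23.4% and 10.6% in sham libraries 1 to 3. The 8 hepatocyte markers summed to 7.57, 27.1 and 36.4 TPM in the nano-TiO2 libraries, against 24.7, 726.8 and 61.9 TPM in the sham libraries. Of 6 lung epithelial markers, Sftpd was at 0 in 5 libraries. Sftpc was at 0.538, 579.3 and 2546 TPM in the nano-TiO2 libraries, against 177.6, 20.39 and 15.55 TPM in the sham libraries. The lung markers summed to 6.39, 616.2 and 2622 TPM in the nano-TiO2 libraries, against 196.7, 26.7 and 20.4 TPM in the sham libraries. The high hepatocyte sum of sham 2 and the high lung sum of nano-TiO2 3 set those libraries apart most. The lung sum was next highest in nano-TiO2 2 and then in sham 1, so lung markers were not confined to nano-TiO2 3. The part of other tissues in the results was not tested.

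Genes of the mitochondrial ribosome were lower in nano-TiO2 hearts relative to the typical gene, while on log2(TPM + 1), where the typical gene stood at 0.48, their median was 0.18. Of the 78 genes, 41 fell and 0 rose at an adjusted p under 0.05 (edgeR's quasi-likelihood test, Benjamini-Hochberg over all 13930 genes tested). Over all genes tested, 12.8% were called lower and 15.5% called higher. The median log2 fold change of nano-TiO2 over sham was -0.49 over the 78 genes, against -0.0061 over all genes tested. The lowest value was that of Mrpl14, -0.78, the highest that of Mrpl9, 0.14, and 75 of the 78 values lay below 0. In CPM (reads relative to the library's size, scaled by TMM so that the typical gene is level), the 3 nano-TiO2 libraries lay wholly below the 3 sham libraries for 62 of the 78 genes and wholly above for 0. The share of all genes tested with wholly lower nano-TiO2 values was 22.4%, and with wholly higher values 23.3%. The count of 41 fell to 11 without nano-TiO2 1, 18 without nano-TiO2 3, 18 without sham 1, 17 without sham 2 and 23 without sham 3, with 0 genes called higher each time. It was 0 without both sham 2 and nano-TiO2 3, where the median was still -0.48. With haemoglobin and mitochondrially encoded genes left out of the fit, 42 genes were called lower. DESeq2 called 49 of the 78 genes lower and 0 higher, beside 10.1% and 10.6% of all genes in its fit.

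**Figure D1:**
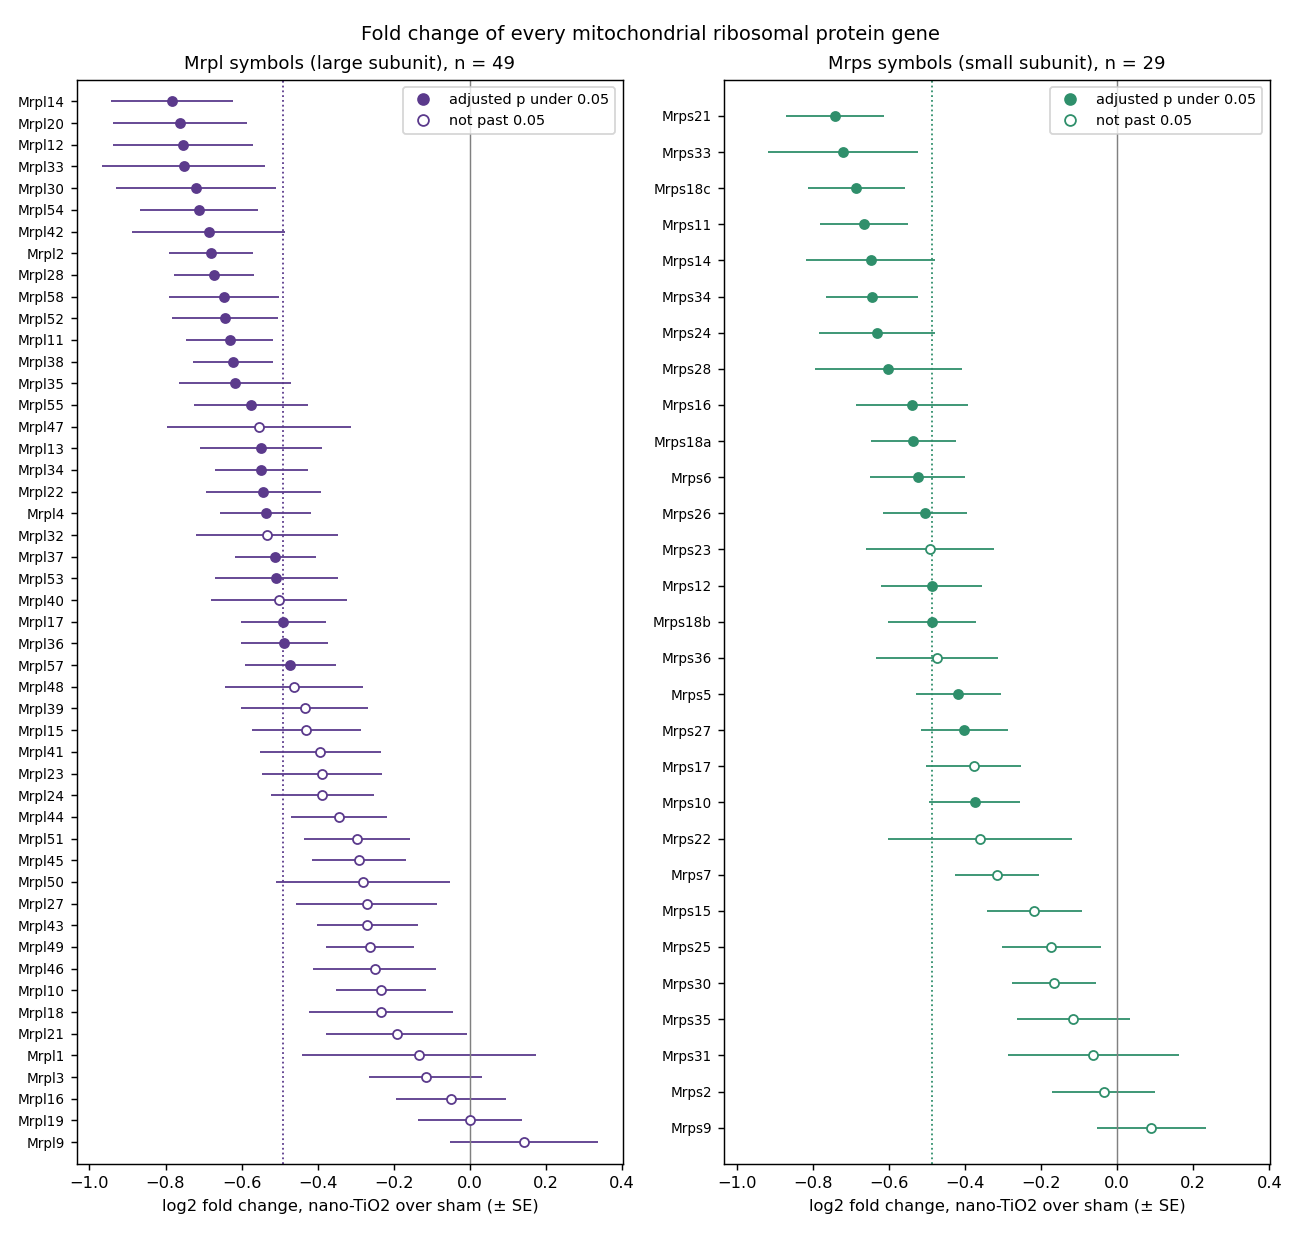
Log2 fold change of nano-TiO2 over sham (x axis) for each of the 78 genes (rows), 49 Mrpl genes on the left and 29 Mrps genes on the right. Points are estimates of edgeR's quasi-likelihood fit, bars are ± 1 SE, filled points have an adjusted p under 0.05 and the dotted line is the median. The values run from -0.78 to 0.14, and the filled points all lie left of 0, whereas on log2(TPM + 1) the median of the 78 genes was 0.18.

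Both subunits showed similar values. Among the Mrpl genes 24 of 49 fell, with a median log2 fold change of -0.49 (25th to 75th percentile -0.62 to -0.28). Among the Mrps genes 17 of 29 fell, with a median of -0.49 (-0.60 to -0.32). The medians differed by -0.0051, large minus small, and on log2(TPM + 1) they were 0.16 for Mrpl and 0.19 for Mrps genes. In the structure of the ribosome the products of Mrps18a and Mrps30 sit in the large subunit, and Mrps36 is known as a component of the 2-oxoglutarate dehydrogenase complex. Grouped by structure, 25 of 51 large-subunit genes and 16 of 26 small-subunit genes were called lower, and the medians differed by -0.0042. The summed TPM of Mrpl genes was 1.96, 1.92 and 1.96 times that of Mrps genes in the nano-TiO2 libraries, against 1.96, 1.95 and 2.08 times in the sham libraries. Only sham 3 lay apart from the narrow range of the other 5 libraries.

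Of the large-subunit genes called lower, Mrpl28 had the smallest p. It was at 246.5, 249.3 and 258.5 CPM in the nano-TiO2 libraries, against 401.2, 416.3 and 384.6 CPM in the sham libraries. The groups were far apart compared with their spread (log2 fold change -0.67 ± 0.11 SE, edgeR adjusted p = 0.0074). Mrpl2, a conserved protein of the catalytic core, had 102.5, 102.8 and 111.9 CPM in the nano-TiO2 libraries, against 162.6, 179.3 and 166.8 CPM in the sham libraries (-0.68 ± 0.11, edgeR adjusted p = 0.0080). Mrpl38, found only in mitochondrial ribosomes, had 94.2, 93.6 and 95.3 CPM in the nano-TiO2 libraries, against 143.1, 146.5 and 146.3 CPM in the sham libraries (-0.62 ± 0.10, edgeR adjusted p = 0.0085). Within each group its 3 values lay within a few CPM of each other. Mrpl11, part of the site where translation factors bind, had 63.5, 61.1 and 66.4 CPM in the nano-TiO2 libraries, against 94.5, 96.1 and 105.4 CPM in the sham libraries (-0.63 ± 0.11, edgeR adjusted p = 0.0094). Mrpl14, at the face that meets the small subunit, had the lowest fold change of all 78 genes, with 122.1, 95.1 and 126.3 CPM in the nano-TiO2 libraries, against 171.3, 189.2 and 230.7 CPM in the sham libraries (-0.78 ± 0.16, edgeR adjusted p = 0.013). With a smooth trend over transcript length and GC content removed from each library, Mrpl14 was at 0.096 ± 0.17 (edgeR adjusted p = 0.79), and its call and direction were lost. The other Mrpl genes named by p were Mrpl37 (-0.51), Mrpl52 (-0.64) and Mrpl54 (-0.71), whose products have no bacterial counterpart.

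Mrpl12, whose product forms the flexible stalk that recruits translation factors, had 420.9, 312.3 and 438.6 CPM in the nano-TiO2 libraries, against 562.9, 608.1 and 805.2 CPM in the sham libraries (-0.75 ± 0.18, edgeR adjusted p = 0.020). Mrpl42 had 409.7, 272.0 and 377.6 CPM in the nano-TiO2 libraries, against 474.7, 520.3 and 709.7 CPM in the sham libraries (-0.69 ± 0.20, edgeR adjusted p = 0.036). In both genes sham 3 was the highest and nano-TiO2 2 the lowest library. Mrpl42 passed in 0 of the 6 fits that left out 1 library, with an adjusted p of up to 0.091 without sham 3. Mrpl12 passed in 5 of the 6 and reached 0.055 without nano-TiO2 1. Mrpl58, a release enzyme built into the large subunit that frees stalled ribosomes, had 103.1 ± 13.5 CPM in nano-TiO2 and 161.4 ± 19.2 CPM in sham hearts (SD, n = 3 each; -0.65 ± 0.15 SE, edgeR adjusted p = 0.016).

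At the other end of the range 3 genes had values at or above 0. Mrpl9 had 28.4, 20.9 and 25.6 CPM in the nano-TiO2 libraries, against 20.4, 19.7 and 27.7 CPM in the sham libraries (0.14 ± 0.19, edgeR adjusted p = 0.62). Mrpl19 had 74.1, 62.9 and 70.1 CPM in the nano-TiO2 libraries, against 68.8, 60.8 and 77.4 CPM in the sham libraries (0.00075 ± 0.14, edgeR adjusted p = 0.997). The groups overlapped in both genes. Mrps9, of the small subunit, likewise overlapped, with 78.3, 57.4 and 73.4 CPM in the nano-TiO2 libraries, against 63.7, 65.5 and 67.4 CPM in the sham libraries (0.089 ± 0.14, edgeR adjusted p = 0.67).

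Among the small-subunit genes, Mrps21 had 124.2, 101.6 and 124.7 CPM in the nano-TiO2 libraries, against 181.8, 195.6 and 208.6 CPM in the sham libraries. Its log2 fold change was -0.74 ± 0.13 (edgeR adjusted p = 0.0085). Mrps11, a conserved protein of the platform, had 67.5, 68.9 and 74.5 CPM in the nano-TiO2 libraries, against 107.3, 119.3 and 108.0 CPM in the sham libraries (-0.67 ± 0.12, edgeR adjusted p = 0.0085). Neither gene's groups overlapped. Mrps34, which has no bacterial counterpart, had 99.1, 86.7 and 107.3 CPM in the nano-TiO2 libraries, against 151.2, 155.3 and 151.6 CPM in the sham libraries (-0.64 ± 0.12, edgeR adjusted p = 0.010). Mrps26 had a fold change of -0.50 ± 0.11 and Mrps6 one of -0.52 ± 0.12, and both fell (edgeR adjusted p = 0.015 and 0.019). Mrps24 fell by 0.63 ± 0.15 on the log2 scale (edgeR adjusted p = 0.020). These falls of Mrps26, Mrps6 and Mrps24 are relative to the typical gene. On log2(TPM + 1) the genes were at 0.19, 0.15 and 0.042. With the smooth trend over transcript length and GC content removed they were at 0.11, 0.032 and 0.22. None was called in either fit.

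The 3 Mrps18 genes form a family related to a bacterial ribosomal protein. Mrps18c, whose product takes the place of that protein, is counted here among the genes with a bacterial counterpart, and Mrps18a and Mrps18b, whose products sit elsewhere, among those specific to mitochondria. Mrps18c had 52.6, 48.4 and 52.8 CPM in the nano-TiO2 libraries, against 75.4, 79.6 and 92.3 CPM in the sham libraries (-0.69 ± 0.13, edgeR adjusted p = 0.010). Mrps18b had 45.8, 45.1 and 46.9 CPM in the nano-TiO2 libraries, against 65.6, 66.1 and 61.3 CPM in the sham libraries (-0.49 ± 0.12, edgeR adjusted p = 0.019). Mrps18a, whose product sits in the large subunit, had 100.5, 103.7 and 115.2 CPM in the nano-TiO2 libraries, against 157.6, 152.5 and 153.1 CPM in the sham libraries (-0.54 ± 0.11, edgeR adjusted p = 0.013). All 3 genes fell, and none of their groups overlapped. Mrps30, the other gene named for the small subunit whose product is a large-subunit protein, did not pass (-0.17 ± 0.11, edgeR adjusted p = 0.29), with 88.5, 90.2 and 90.3 CPM in the nano-TiO2 libraries, against 102.3, 94.3 and 105.1 CPM in the sham libraries. Mrps36 had 143 ± 25.8 CPM in nano-TiO2 and 199 ± 21.4 CPM in sham hearts (SD, n = 3 each; -0.47 ± 0.16 SE, edgeR adjusted p = 0.058). The annotation holds 5 processed pseudogenes named for Mrpl23, Mrpl48 and Mrps36, so the read counts of these 3 genes are uncertain.

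**Figure D2:**
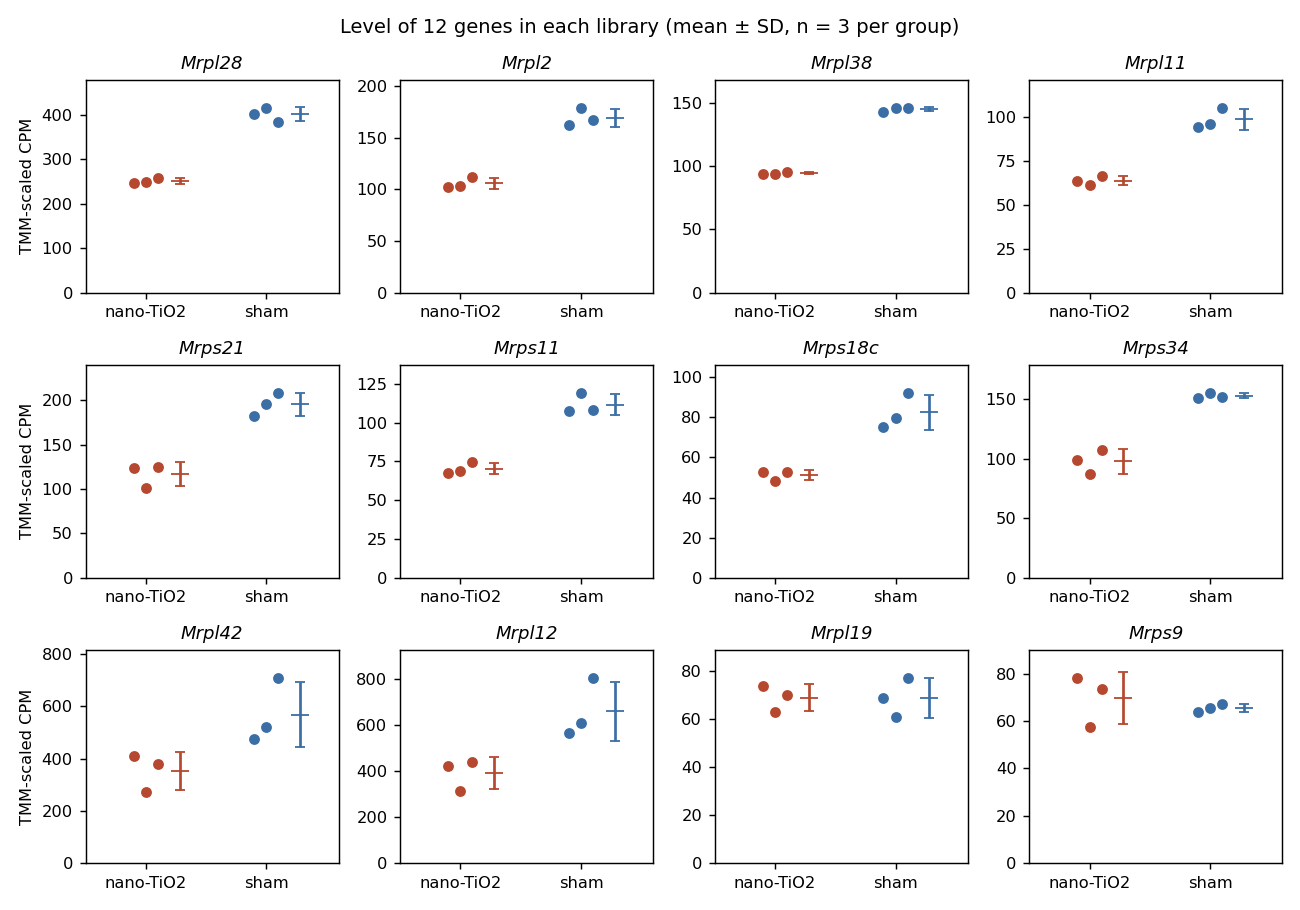
TMM-scaled CPM (y axis, from 0) in each nano-TiO2 library (left) and each sham library (right) for 12 genes, with the mean ± SD beside the points (n = 3 per group). In the top 8 panels and in Mrpl42 and Mrpl12 every nano-TiO2 point lies below every sham point, whereas in Mrpl19 and Mrps9 the groups overlap.

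Many nuclear genes for mitochondrial proteins carry binding motifs of the factors NRF1, GABP (an ETS factor) and YY1 near their start. Of the 78 genes 69 had an entry in the RefSeq promoter table (build GRCm38.p6), read here as the first window listed for each gene, 250 bases before and 50 after the start. The NRF1 core CGCANGCG, on either strand, stood in 20 of the 69 windows (29%), against 11.4% of the 17492 windows of protein-coding genes. The ETS core CCGGAAGT stood in 11 (15.9%, against 5.29%) and the YY1 core AAGATGGC in 12 (17.4%, against 3.22%). Any of the 3 was found in 36 windows (52.2%, against 18.1%), and the 3 counts overlap where a window holds several. Of these 36 genes 21 were called lower, with a median log2 fold change of -0.49, and of the 33 genes without a match 14 were called lower, with a median of -0.46. Mrpl9, the gene with the highest fold change, holds the NRF1 core just as Mrpl12 does. The 250 bases before the start are shown for one gene with each motif and for Mrpl9, all on the plus strand of GRCm38.p6, 5′ to 3′, with the core in capitals as it reads on that strand. They are chr11:120484387-120484636 (NRF1, first base at -80 from the start), chr5:100798509-100798758 (ETS, at -157), chr7:78782881-78783130 (YY1, at -107) and chr3:94443086-94443335 (NRF1, at -27).
Mrpl12: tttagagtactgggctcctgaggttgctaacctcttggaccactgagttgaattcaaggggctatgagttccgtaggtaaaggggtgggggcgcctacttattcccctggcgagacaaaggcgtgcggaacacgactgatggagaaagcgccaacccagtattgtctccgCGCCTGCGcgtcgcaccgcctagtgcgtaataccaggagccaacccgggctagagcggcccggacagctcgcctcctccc
Mrps18c: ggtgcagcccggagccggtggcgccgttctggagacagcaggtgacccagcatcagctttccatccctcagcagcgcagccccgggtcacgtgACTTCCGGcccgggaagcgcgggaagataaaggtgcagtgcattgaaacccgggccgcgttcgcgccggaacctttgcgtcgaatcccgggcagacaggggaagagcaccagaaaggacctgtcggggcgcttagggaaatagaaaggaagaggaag
Mrps11: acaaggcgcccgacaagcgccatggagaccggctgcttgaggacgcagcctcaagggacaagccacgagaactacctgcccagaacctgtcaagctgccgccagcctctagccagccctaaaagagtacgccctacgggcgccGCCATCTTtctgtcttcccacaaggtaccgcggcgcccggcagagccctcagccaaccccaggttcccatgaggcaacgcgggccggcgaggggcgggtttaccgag
Mrpl9: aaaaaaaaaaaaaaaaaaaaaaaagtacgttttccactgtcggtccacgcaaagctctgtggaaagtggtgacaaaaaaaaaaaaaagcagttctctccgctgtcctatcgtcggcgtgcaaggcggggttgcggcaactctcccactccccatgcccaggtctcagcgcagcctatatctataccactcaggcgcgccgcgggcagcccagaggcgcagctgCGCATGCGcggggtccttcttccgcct
The capitals mark letter matches only. In Mrpl12, Mrps18c and Mrps11 the match reads on the strand opposite to the gene.

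Per unit of transcript length, the most abundant mitochondrial ribosomal protein RNA was that of Mrpl42, at 858.6, 724.0 and 817.3 TPM in the nano-TiO2 libraries, against 776.4, 637.9 and 1086 TPM in the sham libraries. Mrpl54 followed at 533.9 ± 16.1 TPM in nano-TiO2 and 551.1 ± 118 TPM in sham hearts (SD, n = 3 each). Mrpl12 was at 421.4 ± 31.3 TPM in nano-TiO2 and 456.6 ± 106 TPM in sham hearts, and Mrps21 at 424.2 ± 13.6 TPM in nano-TiO2 and 441.2 ± 53.5 TPM in sham hearts. Mrps24 was at 398.3 ± 16.9 TPM in nano-TiO2 and 390.2 ± 64.2 TPM in sham hearts, and Mrpl28 at 353.8 ± 43.4 TPM in nano-TiO2 and 352.1 ± 45.3 TPM in sham hearts. In nano-TiO2 hearts the means of Mrps21 and Mrpl12 differed by less than their spread, whereas Mrps21 and Mrps24, and Mrps24 and Mrpl28, differed by more than either SD. In sham hearts neighbouring means from Mrpl12 to Mrpl28 differed by less than their spread. The lowest levels were those of Mrpl1, 10.9 ± 3.22 TPM in nano-TiO2 and 8.75 ± 3.72 TPM in sham hearts, and Mrpl9, 21.1 ± 0.763 TPM in nano-TiO2 and 12.3 ± 3.13 TPM in sham hearts. The median over the 78 genes of the mean level was 107.2 TPM, against 6.74 TPM over all genes tested.

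On this scale the groups differed otherwise than in CPM. TPM are shares of all RNA measured in a library, whereas TMM scaling sets the typical gene level. The part of the haemoglobin share in the difference was not tested. The summed TPM of the 78 genes was 11940, 12310 and 12360 in the nano-TiO2 libraries, against 11680, 9359 and 13430 in the sham libraries, and the groups overlapped. The summed TMM-scaled CPM was 7586, 6289 and 7629 in the nano-TiO2 libraries, against 9338, 9863 and 11530 in the sham libraries, with no overlap. With haemoglobin and mitochondrially encoded genes left out before TPM were rescaled, the summed TPM was 15840, 14570 and 15980 in the nano-TiO2 libraries, against 15750, 15680 and 17670 in the sham libraries, which overlapped again.

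Tested on log2(TPM + 1) with limma, 0 of the 78 genes were called lower and 3 higher, Mrpl19 (0.70 ± 0.24 on that scale, limma adjusted p = 0.022), Mrpl9 (0.76 ± 0.26, limma adjusted p = 0.018) and Mrps9 (0.72 ± 0.23, limma adjusted p = 0.014). Of the 11935 genes in that fit 0.134% were called lower and 38% higher. At an unadjusted p under 0.05 the counts were 0 lower and 8 higher. The median over the 78 genes was 0.18 and that over all genes 0.48, so that the set lay 0.30 below the typical gene. In TPM the 3 nano-TiO2 values lay wholly above the sham values for 18 genes and wholly below for 0, against 47.2% and 0.318% of all genes. Without haemoglobin and mitochondrially encoded genes, 0 were lower and the same 3 genes higher (0.48% and 28.7% of all genes), and the set lay 0.35 below the typical gene. Scaled by library totals only, 0 genes were lower and 1 higher, Mrps9 (0.50 ± 0.18, edgeR adjusted p = 0.045), beside 0.359% and 30.7% of all genes, and at an unadjusted p under 0.05 there were 0 and 3. That scaling put the median of all genes at 0.41 and the set 0.48 below it. A change of library scaling shifts all genes about equally, so this distance could hardly differ from that under TMM.

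**Figure D3:**
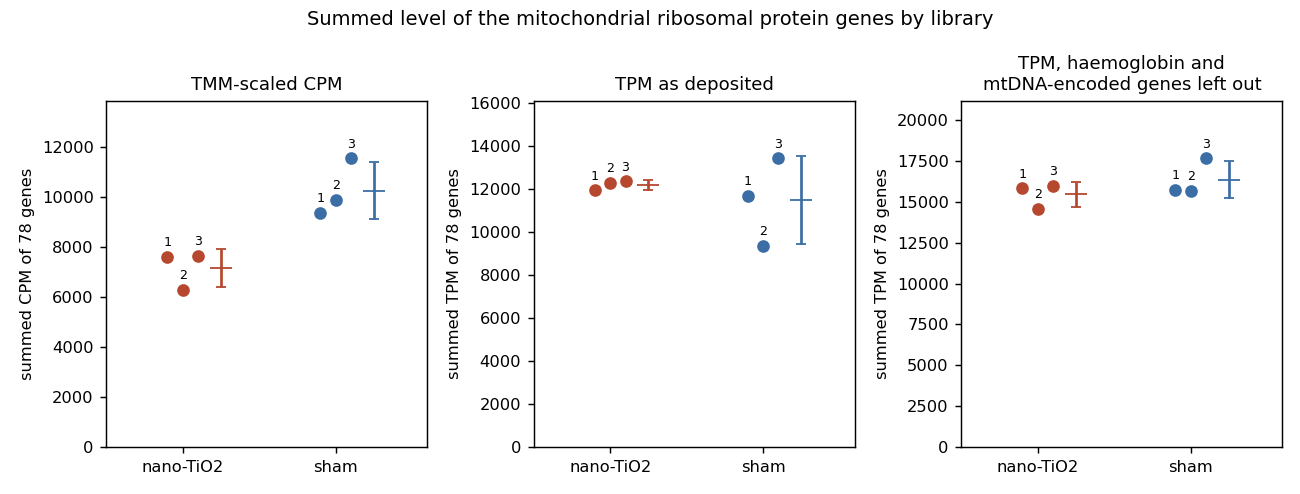
Summed level of the 78 genes in each library (y axes, from 0), nano-TiO2 left and sham right, with the library number above each point and the mean ± SD beside them (n = 3 per group). The TMM-scaled CPM of the groups do not overlap, whereas both sums of TPM do.

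The fold changes followed transcript length. The 78 genes have short transcripts, with a median of 973 bases (337 to 3323), against 2381 bases over all genes tested. Across the 78 genes the log2 fold change rose with length (Pearson r = 0.56, Spearman rho = 0.56), fell with GC content (r = -0.35, rho = -0.34) and fell with the mean TPM level (r = -0.69, rho = -0.69). These correlations are across genes measured in the same 6 libraries, which are not independent replicates. Of the 26 genes with the shortest transcripts (337 to 811 bases) 20 were called lower, with a median log2 fold change of -0.59. Of the 26 in the middle (820 to 1161 bases) 15 were called lower, with a median of -0.50, and of the 26 longest (1165 to 3323 bases) 6 were, with a median of -0.30. Among the other genes tested in the same ranges of length, 47.4% of 791, 30.3% of 1061 and 11.3% of 7938 were called lower, with medians of -0.61, -0.41 and -0.056.

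A pair of fits took out, library by library, a smooth trend over gene properties, and both were chosen with the data known, the joint one after seeing the first. With an additive trend over length and GC removed, 11 of the 78 genes were called lower and 0 higher, beside 2.22% and 1.46% of all genes tested. The median was -0.093, against -0.031 over all genes. Of the 11 genes, 5 were among the 41 called before (Mrps33, Mrps18c, Mrpl42, Mrps14 and Mrpl35) and 6 were not (Mrpl32, Mrpl39, Mrpl45, Mrpl47, Mrpl50 and Mrps30). The values of that fit rose with GC content across the 78 genes (r = 0.77, rho = 0.78) and fell with length (r = -0.41, rho = -0.38), both opposite in sign to the group fit. With a joint trend over length and GC, and a trend over level, removed, 0 genes were called in either direction by edgeR, beside 0.273% lower and 0.89% higher over all genes. At an unadjusted p under 0.05 there were 7 lower and 2 higher. The median was then -0.025, with 25th and 75th percentiles of -0.14 and 0.11, against -0.015 over all genes. By length, the medians were 0.066, -0.018 and -0.14 from the shortest to the longest 26 genes.

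**Figure D4:**
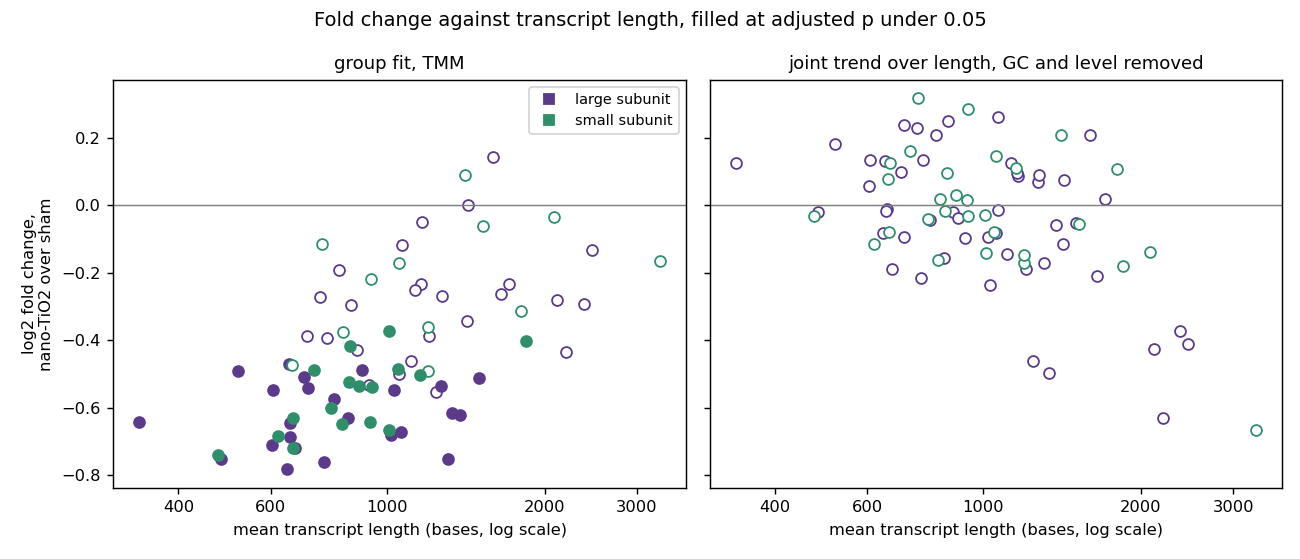
Log2 fold change of nano-TiO2 over sham (y axis) against mean transcript length (x axis, log scale) for the 78 genes, in the group fit (left) and with the joint trend over length, GC content and level removed (right). Filled points have an adjusted p under 0.05; on the left 41 are filled, most of them at short lengths, and on the right 0 are.

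Bacterial ancestry and later addition went with small differences in the counts. Of 46 genes with a bacterial counterpart 27 were called lower, with a median of -0.53, and of 31 genes specific to mitochondria 14 were, with a median of -0.46. The median transcript lengths of these groups were 909 and 1112 bases. In the large subunit by structure the medians were -0.54 (30 genes with a counterpart) and -0.46 (21 without), and in the small subunit -0.51 (16 genes) and -0.44 (10 genes).

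The table of reads along genes, a second processing of the same libraries, gave similar counts. Reads summed per gene over its bins called 35 of the 78 genes lower and 0 higher, beside 11.2% and 15.4% of the 18850 genes in that fit, with a median of -0.42. Of these, 34 were shared with the estimated reads, 82.9% of the 41 and 97.1% of the 35, and the other was Mrpl23. With the additive trend removed from this table, 10 genes were called lower and 0 higher, beside 2.23% and 1.95% of all genes. Sides of the gene's midpoint were compared in 72 genes with at least 10 reads on each side in every library. The median log2 fold change was -0.41 on the 5′ side and -0.36 on the 3′ side. Of the 72 genes, 57 were lower on both sides and 3 higher on both. These values by side are descriptive, without a test, and are not to be compared with the fitted median of -0.42. How many of all genes were lower or higher on both sides is not given here, nor are their medians. The median share of a gene's reads on its 5′ side was 51.0%, 53.8% and 52.0% in the nano-TiO2 libraries, against 52.7%, 51.6% and 52.2% in the sham libraries. Protein-coding transcripts carried 84.7%, 85.3% and 84.9% of the 78 genes' estimated reads in the nano-TiO2 libraries, against 85.2%, 85.1% and 85.8% in the sham libraries. Retained-intron transcripts carried 6.18%, 6.09% and 6.07% in the nano-TiO2 libraries, against 6.06%, 6.20% and 5.72% in the sham libraries. Transcripts annotated as processed transcripts carried 4.47%, 4.21% and 4.45% in the nano-TiO2 libraries, against 4.08%, 4.05% and 4.01% in the sham libraries, and this was the only one of the 4 classes in which the groups did not overlap. In some single genes protein-coding transcripts carried far less. Their mean share was 7.68% in nano-TiO2 and 8.94% in sham hearts for Mrpl3. It was 30.8% and 26.3% for Mrps14, and 23.5% and 24.6% for Mrps16. Mrps14 and Mrps16 were among the 41 genes called lower.

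A further 5 proteins of the mitochondrial ribosome have symbols of another form. Of these 3 fell and 0 rose, with a median of -0.48, beside 12.8% and 15.5% of all genes. On log2(TPM + 1) 0 were lower and 1 higher, with a median of 0.18, beside 0.134% and 38% of all genes. Chchd1 had 112.4, 85.1 and 117.5 CPM in the nano-TiO2 libraries, against 160.2, 163.0 and 229.0 CPM in the sham libraries (-0.81 ± 0.18, edgeR adjusted p = 0.017). Gadd45gip1, also known as CRIF1, had 91.2, 87.9 and 97.7 CPM in the nano-TiO2 libraries, against 132.6, 134.9 and 139.5 CPM in the sham libraries (-0.56 ± 0.11, edgeR adjusted p = 0.011). Aurkaip1 fell as well (-0.48 ± 0.15, edgeR adjusted p = 0.040). Dap3, a GTP-binding protein of the small subunit, did not pass (-0.25 ± 0.11, edgeR adjusted p = 0.12), though its groups did not overlap, with 97.5 ± 3.09 CPM in nano-TiO2 and 115.6 ± 5.28 CPM in sham hearts (SD, n = 3 each). Ptcd3, a pentatricopeptide repeat protein of the small subunit, had 81.2, 45.4 and 53.8 CPM in the nano-TiO2 libraries, against 36.2, 32.2 and 64.4 CPM in the sham libraries (0.44 ± 0.30, edgeR adjusted p = 0.30), and its groups overlapped.

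Of 24 tested factors that assemble the mitochondrial ribosome, 3 fell and 0 rose, with a median of -0.32, a share called lower close to the 12.8% of all genes. On log2(TPM + 1) 0 of them were lower and 5 higher, with a median of 0.42, beside 0.134% and 38% of all genes on that scale. The 3 that fell were Mpv17l2 (42.6 ± 4.13 CPM in nano-TiO2 and 69.9 ± 4.48 CPM in sham hearts, SD, n = 3 each; -0.71 ± 0.13 SE, edgeR adjusted p = 0.0096), the GTPase Mtg2 (-0.65 ± 0.13, edgeR adjusted p = 0.012) and Rbfa, which binds the small subunit (-0.53 ± 0.12, edgeR adjusted p = 0.018). Ddx28, a helicase, lay close to the threshold (-0.46 ± 0.15, edgeR adjusted p = 0.053). Of 17 factors of mitochondrial translation and messenger RNA handling, 4 fell and 1 rose, with a median of -0.10, beside 12.8% and 15.5% of all genes. On log2(TPM + 1) 0 were lower and 7 higher, with a median of 0.50, beside 0.134% and 38% of all genes. Scaled by library totals 0 were lower and 6 higher, beside 0.359% and 30.7% of all genes. The elongation factor Tufm fell, with 179.0, 180.2 and 188.2 CPM in the nano-TiO2 libraries, against 260.6, 280.9 and 285.4 CPM in the sham libraries (-0.60 ± 0.11, edgeR adjusted p = 0.0092), as did its exchange factor Tsfm (-0.43 ± 0.11, edgeR adjusted p = 0.024) and the membrane insertase Oxa1l (-0.37 ± 0.11, edgeR adjusted p = 0.038). Slirp and Lrpprc, whose products form a complex that binds mitochondrial messenger RNA, moved in opposite directions. Slirp had 47.4, 42.9 and 39.7 CPM in the nano-TiO2 libraries, against 75.1, 75.8 and 70.9 CPM in the sham libraries (-0.77 ± 0.13, edgeR adjusted p = 0.0079). Lrpprc had 73.0, 48.8 and 57.0 CPM in the nano-TiO2 libraries, against 37.4, 31.4 and 43.2 CPM in the sham libraries (0.67 ± 0.19, edgeR adjusted p = 0.031). Their mean transcript lengths are 492 and 4158 bases, and with the additive trend over length and GC removed Lrpprc was at -0.0069 ± 0.15 and Slirp at -0.60 ± 0.17 (edgeR adjusted p = 0.98 and 0.083), neither of them called.

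Of 17 mitochondrial aminoacyl-tRNA synthetases, which charge tRNAs with amino acids, 6 fell and 2 rose, with a median of -0.31, beside the same 12.8% and 15.5% of all genes. On log2(TPM + 1) 0 were lower and 7 higher, with a median of 0.31, beside 0.134% and 38% of all genes. Scaled by library totals 0 were lower and 5 higher, beside 0.359% and 30.7% of all genes. Sars2 (-0.80 ± 0.15, edgeR adjusted p = 0.010), Aars2 (-0.66 ± 0.14, edgeR adjusted p = 0.013) and Lars2 (-0.87 ± 0.20, edgeR adjusted p = 0.017) were among those that fell. Lars2 stood at 2088 ± 368 CPM in nano-TiO2 and 3822 ± 863 CPM in sham hearts (SD, n = 3 each), far above the other synthetases, and whether all of these reads come from its messenger RNA was not tested. Iars2 rose, with 58.7, 54.9 and 52.2 CPM in the nano-TiO2 libraries, against 36.3, 33.9 and 33.5 CPM in the sham libraries (0.68 ± 0.13, edgeR adjusted p = 0.0099), and with the additive trend removed it was at -0.069. Of 13 genes for mitochondrial DNA transcription and its nuclear regulators, 0 fell and 3 rose, beside 12.8% and 15.5% of all genes. Their median was -0.057. On log2(TPM + 1) 0 were lower and 6 higher, with a median of 0.53, beside 0.134% and 38% of all genes. Scaled by library totals 0 were lower and 6 higher, beside 0.359% and 30.7% of all genes. The 3 that rose were Yy1 (1.01 ± 0.21, edgeR adjusted p = 0.013), Gabpa (0.89 ± 0.28, edgeR adjusted p = 0.046) and Ppargc1a, the coactivator of mitochondrial biogenesis (0.98 ± 0.31, edgeR adjusted p = 0.047), with mean transcript lengths of 6101, 4509 and 4494 bases. The groups of Ppargc1a overlapped, with 101.1, 40.4 and 71.1 CPM in the nano-TiO2 libraries, against 29.2, 33.6 and 44.8 CPM in the sham libraries. With the additive trend removed Yy1 was at 0.40, Gabpa at 0.22 and Ppargc1a at 0.19 (edgeR adjusted p = 0.28, 0.47 and 0.71), and none was called. Nrf1 did not pass (-0.057 ± 0.18, edgeR adjusted p = 0.83), nor did Polrmt, the mitochondrial RNA polymerase (-0.49 ± 0.16, edgeR adjusted p = 0.053).

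Of the 13 proteins encoded by mitochondrial DNA, the products of this ribosome, 2 were called lower and 0 higher, with a median of -0.72, a share called lower close to the 12.8% of all genes. Scaled by library totals and on log2(TPM + 1) 0 were called in either direction, and the median on log2(TPM + 1) was -0.16. mt-Co3 had 4313, 2718 and 3853 CPM in the nano-TiO2 libraries, against 5907, 5680 and 7538 CPM in the sham libraries (-0.81 ± 0.20, edgeR adjusted p = 0.021), and mt-Atp8 had a fold change of -0.80 ± 0.24 (edgeR adjusted p = 0.041). mt-Atp6 and mt-Co1 did not pass (-0.92 ± 0.32 and -0.66 ± 0.26, edgeR adjusted p = 0.066 and 0.092). Their summed TPM was 37300, 24140 and 32800 in the nano-TiO2 libraries, against 29030, 30280 and 47900 in the sham libraries, with overlapping groups. With the additive trend removed, 1 of the 5 other ribosomal proteins and 1 of the 17 synthetases were called lower, 1 of the 17 translation factors was called higher, and 0 genes of the remaining 3 lists were called. With the joint trend removed, 0 genes of any of these 6 lists were called by edgeR.

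**Figure D5:**
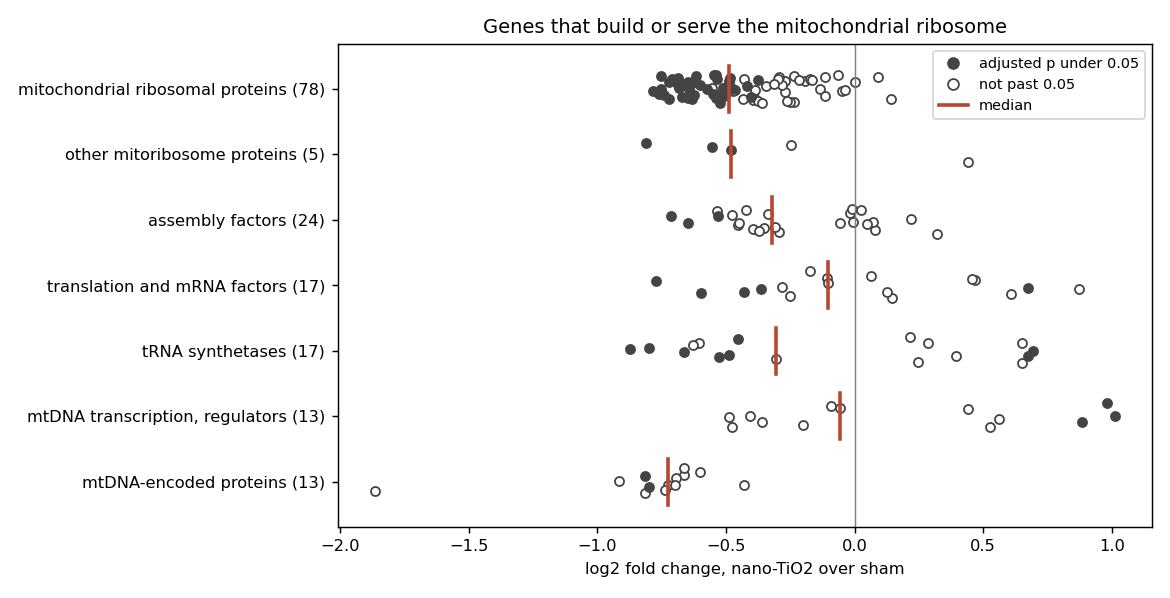
Log2 fold change of nano-TiO2 over sham (x axis) for the 78 genes and for the tested genes of 6 related lists (rows, number of genes in brackets). Each point is 1 gene, filled at an adjusted p under 0.05, and the red bar is the median, which runs from -0.72 for the proteins encoded by mitochondrial DNA to -0.057 for the regulators; on log2(TPM + 1) only the proteins encoded by mitochondrial DNA have a median below 0.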

How the data were processed

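RNA was measured in 6 input libraries, 3 nano-TiO2 and 3 sham, grouped by their titles. Each library's file holds estimated counts per transcript, deposited unscaled, and TPM derived from them and from effective lengths; both come from Salmon, per the file headers. The series table holds a signal per bin of about 25 bases, which the authors had divided by a factor for each library; multiplying back gave whole reads for 100% of values (tolerance 0.001). Per the submitters' processing notes the tools included DESeq2 1.34.0, Salmon 1.5.2 and HISAT2 2.2.1, with the build GRCm39; no source here gives their roles. GENCODE M21 (GRCm38) supplied symbols and GC content, and transcript lengths were those of the Salmon output. Of 116747 transcripts 115685 matched, and 1062 were left out.

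Estimated counts were summed per gene and rounded. The main test was edgeR 4.0.16 (R 4.3.3), quasi-likelihood with robust fitting, on group alone, after TMM and filterByExpr, with Benjamini-Hochberg over 13930 genes at 0.05; all 78 genes passed the filter. SE is the size of the log2 fold change divided by the root of F. CPM are TMM-scaled. TPM were tested with limma 3.58.1 on log2(TPM + 1), keeping genes that averaged 1 TPM or more, which understates changes of low genes. Trends were smoothed with mgcv 1.9.3 on log2 CPM with a prior count of 2, and DESeq2 1.42.0 and limma-voom were alternatives. Only the main edgeR fit was tested on simulated data, which held no trend over length, GC content or level. Tables and figures used Python 3.11.15 with pandas 2.3.3 and matplotlib 3.10.9. Libraries of a group differed by more than sampling noise.

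The genes and lists were chosen with earlier results of these data known. Named genes were the 6 with the highest TPM, up to 8 per subunit and direction by smallest p, members of particular role, the 5 proteins of other symbol and up to 4 per list by smallest p: 54 names, 47 genes. Mrpl9, Mrpl19, Mrps9 and other genes named outside this rule were chosen after their values were seen. The motif cores of 8 letters were set after longer forms had been searched. The lists of related genes and of cell markers were written from general knowledge. The 2 mitochondrial ribosomal RNAs had no matched transcript and were not analysed here.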

Additional observations from a re-analysis of the deposited data

How the results depend on the processing

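The 78 genes kept a count of 29 to 49 called lower, 0 called higher and a median of -0.50 to -0.42 under RLE and upper-quartile factors, limma-voom, DESeq2 (49), either change of the filter, length-scaled TPM counts (29), coding transcripts only, leaving out haemoglobin and mitochondrial genes, and the series table. In these settings the median of the 78 genes minus that of all genes ran from -0.541 to -0.411. Of these settings, shares of all genes called are given above only for DESeq2 and the series table. With 1 library left out, 11 to 31 were lower, 0 higher, with medians of -0.525 to -0.364. Of the 41 genes, 10 passed in all 6 such fits and 7 in 0. Without sham 2 and nano-TiO2 3 0 were lower, with 2 libraries per group, and large minus small moved to -0.086. Library totals only gave 0 lower, 1 higher and -0.0698. log2(TPM + 1) gave 0, 3 and 0.176, log2(TPM + 0.1) 0, 3 and 0.177, without haemoglobin and mitochondrial genes 0, 3 and -0.0063, and without sham 2 0, 1 and 0.0585. The additive trend gave 11 lower and -0.0933, the same trend taken from the series table's reads 10 lower and -0.0799, and the joint trend 0 and -0.0245. The cause of these shifts was not tested. Chosen after seeing the data were the joint trend, the last 2 on TPM, and the additive trend on the series table or with the replicate block. The additive trend itself was also chosen with the data known.

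Same-numbered libraries did not deviate together (correlations of -0.39, 0.0218 and -0.0812). Pairs with different numbers ran from -0.415 to 0.48, highest for nano-TiO2 1 with sham 3 and next for nano-TiO2 2 with sham 1 (0.425). With 3 libraries per group these correlations cannot decide whether the numbers pair the libraries. With the replicate block 26 genes were called lower and 0 higher, with a median of -0.487, against -0.0074 over all genes. With block and additive trend 2 were called lower, with a median of -0.0936, against -0.031 over all genes. The shares of all genes called in these fits are not given here.

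Of the 47 named genes, 14 changed sign under the additive trend: Mrpl54 (0.192), Mrps24 (0.216), Mrpl14 (0.0958), Mrpl52 (0.377), Mrps34 (0.0613), Mrps18a (0.102), Mrps26 (0.108), Mrps6 (0.0322), Mrpl58 (0.15), Aurkaip1 (0.175), Rbfa (0.017), Ptcd3 (-0.0129), Lrpprc (-0.0069) and Iars2 (-0.0688). Under library totals 2 of the 47 did, Dap3 (0.173) and Mrps30 (0.249). Further genes of the 78, outside the named ones, changed sign as well. Examples are Mrpl17 (0.40) and Mrpl34 (0.35) under the additive trend, and Mrpl16 (0.37) and Mrps2 (0.38) under library totals. Of 47 named genes, 22 lost their call without changing sign under the additive trend and 34 under library totals. The lowest count of any of the 78 genes in a single library was 261 reads, for Mrpl1 in nano-TiO2 2.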

Other observations

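With the joint trend over length, GC content and level removed, the 4 lowest values belonged to genes among the 26 with the longest transcripts. Mrps30, whose product belongs to the large subunit despite its name, was at -0.67 ± 0.14 (SE; edgeR adjusted p = 0.060). Mrpl39, which resembles a tRNA synthetase, was at -0.63 ± 0.13 (edgeR adjusted p = 0.056), Mrpl35 at -0.50 ± 0.10 (edgeR adjusted p = 0.053) and Mrpl47 at -0.46 ± 0.14 (edgeR adjusted p = 0.17). The highest value was that of Mrps35, 0.32 ± 0.10 (edgeR adjusted p = 0.17). Across the 78 genes these values fell with length (Pearson r = -0.51, Spearman rho = -0.38) and rose with GC content (r = 0.47, rho = 0.43), both opposite in sign to the fit without the trend, as a description across genes of the same 6 libraries. Of these 5 genes only Mrpl35 had been called lower before the trend was removed.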
